A study of Cavia porcellus with 10 samples.

Results

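The ion, anion and amino acid solute carriers were the genes named SLC1A, SLC4A, SLC5A, SLC6A, SLC7A, SLC9A, SLC12A, SLC13A, SLC26A, SLC36A, SLC38A or SLC43A followed by digits alone. The rule used names and no measured value, though it was chosen with earlier results of these data known. It found 98 of the 25028 genes in the table, 20251 of which have a name, and left out 221 other genes named SLC. The largest families were SLC6 with 17 members, SLC7 with 12, SLC5 with 11 and SLC38 with 10. RNA was sequenced from the cervix of 10 Hartley guinea pigs in 3 reproductive stages, to follow transcript abundance through pregnancy. The non-pregnant group (NP) held 3 females killed on entering estrus. The mid-pregnant group (MT) held 3 females at 43.6 ± 0.5 days of gestation, and the late pregnant group (LT) held 4 females at 65.2 ± 1.2 days that were not in labor. Pregnancy dates were uncertain and were estimated after death from the size of the fetuses. The labels name no transgene and no treatment in any group. The vaginal portion of the cervix was taken whole, so each sample mixes all cell types of that tissue.

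Solute carriers are membrane proteins that move small molecules, either by exchange or coupled to the gradient of sodium, protons or chloride. Secretory epithelia use members of these families to move chloride and bicarbonate, which set the volume, pH and viscosity of mucus, and to take up vitamins, dicarboxylates and amino acids. The cervix in pregnancy is known for a mucus plug made by its glandular epithelium.

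The counted reads per library numbered from 20047660 to 27351763 in NP, from 18730665 to 25380420 in MT and from 25804572 to 27881572 in LT. Levels are transcript shares scaled to a fixed total (TPM), a unit that is corrected for gene length and sums alike in each animal. Changes were tested with limma on log2(TPM + 1) over 12645 genes that reached a mean of 3 TPM, the study's operational threshold of expression, in at least 1 stage. Log2 fold changes are on this scale, where the added 1 shrinks the differences of scarce transcripts, and a call is a Benjamini-Hochberg adjusted P under 0.05 over all these genes. The p-values measure the spread between the sampled animals.

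Markers of cervical tissue were present in every animal. The summed level of the glandular mucus epithelium list (18 of 22 genes with a row, TFF1 at 0 in all animals) ranged over the animals from 1439 to 2576 TPM (NP), from 6635 to 9935 TPM (MT) and from 11650.1 to 17624 TPM (LT). NP replicate 1 stood apart from the other NP animals. Its squamous epithelium markers summed to 3420 TPM against 1061 and 1106 TPM, and its smooth muscle markers to 32058 TPM against 9107 and 11538 TPM. In LT the smooth muscle sum was 19812 and 19870 TPM in replicates 1 and 2 and 39199 and 40584 TPM in replicates 3 and 4. In whole tissue, fewer cells of a type and less RNA per cell cannot be told apart.

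Of the 98 members, 52 reached the threshold and were tested, and 46 did not. Among the untested members, 7 had a highest stage mean from 1 to 3 TPM, 35 were lower with at least 1 read, and SLC4A10, SLC5A11, SLC6A19 and SLC7A3 had no read in any animal. Just inside the threshold lay SLC6A11 with a highest stage mean of 3.03 TPM and SLC7A11 with 3.30 TPM. Just outside lay SLC26A9 with 2.67 TPM and SLC9A7 with 2.46 TPM. In at least 1 comparison 30 tested members were called, and 22 were called in none.

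From NP to MT, 14 of the 52 tested members were called (26.9%), where 18.5% of all tested genes were. Higher in MT were 10 members (19.2%, against 6.27% of all genes) and lower were 4 (7.69%, against 12.2%). From MT to LT, 18 members were called (34.6%, against 29.4% of all genes), of which 1 was higher (against 6.73%) and 17 were lower (32.7%, against 22.7%). From NP to LT, 22 members were called (42.3%, against 53.1% of all genes), with 8 higher (15.4%, against 11.2%) and 14 lower (26.9%, against 41.9%). The members exceeded the background most in the share called higher from NP to MT and in the share called lower from MT to LT. Both comparisons rest on the same 3 MT animals. Without NP replicate 1, with 51 members tested, 10 were higher and 8 lower from NP to MT, where 7.18% and 25.9% of all genes were. From MT to LT 2 were then higher and 19 lower (all genes 9.72% and 32.4%), and from NP to LT 10 were higher and 17 lower (11.2% and 50.1%).

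The median log2 fold change of the members was 0.13 from NP to MT, where the median of all tested genes was -0.14. It was -0.22 from MT to LT (all genes -0.16) and -0.15 from NP to LT (all genes -0.28). When TPM was rescaled by the median ratio of each animal, which brought the medians of all genes to -0.02, 0.00 and 0.00, the medians of the members were 0.25, -0.06 and 0.11, so the sign from NP to LT depends on the scaling. The split of higher against lower calls then became 12 to 3 from NP to MT, where 10.4% of all genes were called higher and 7.74% lower, 3 to 15 from MT to LT, where 14.0% of all genes were called higher and 15.3% lower, and 16 to 11 from NP to LT, where the shares were 24.7% and 25.0%. With edgeR on the counts the splits were 11 to 4 (all genes 10.1% and 7.98%), 3 to 12 (13.4% and 15.6%) and 15 to 11 (23.6% and 25.8%). With DESeq2 they were 13 to 5 (13.1% and 11.5%), 6 to 14 (17.4% and 18.8%) and 17 to 12 (26.2% and 27.5%).

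**Figure D1:**
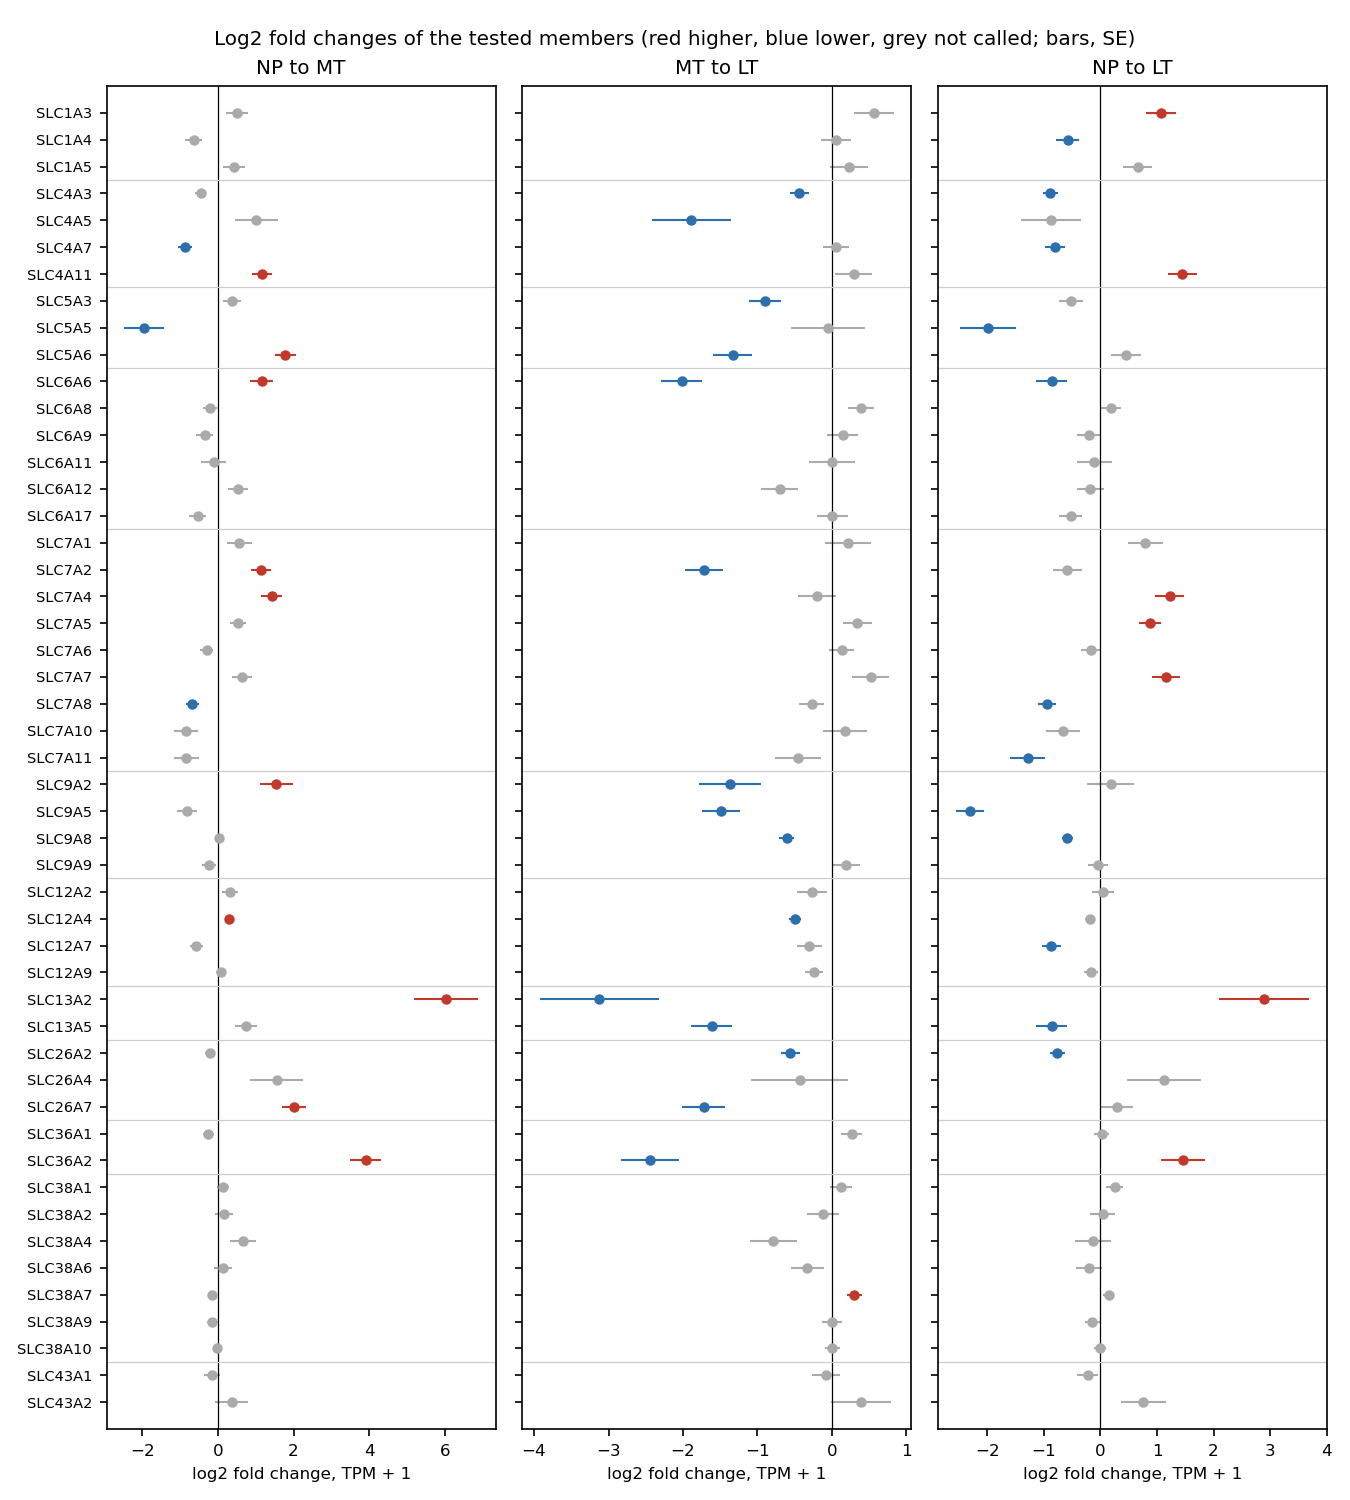
Log2 fold change of TPM + 1 for 49 of the 52 tested members in the 3 comparisons, 1 row per gene, with bars of 1 standard error and grey lines between families. Red marks the members called higher and blue those called lower by limma, and grey those not called. SLC13A2 and SLC36A2 lie farthest to the right from NP to MT and farthest to the left from MT to LT.

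A peak in mid-pregnancy was frequent among the members. In 9 of the 52 tested members (17.3%) every MT animal lay above every NP and every LT animal, which held for 4.06% of all tested genes. These were SLC5A6, SLC6A6, SLC6A12, SLC7A2, SLC12A4, SLC13A2, SLC13A5, SLC26A7 and SLC36A2. After median-ratio scaling the number was again 9, of which 8 were shared, with SLC5A3 in place of SLC6A12. By limma, 8 members (15.4%) were called higher from NP to MT and then lower from MT to LT, against 1.63% of all genes. They were SLC9A2 and 7 of the 9, without SLC6A12 and SLC13A5. SLC9A2, SLC13A5 and SLC26A7 reached a mean of 3 TPM in MT alone, so they were tested only through the stage where they were highest.

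The number called up and then down was 6 with edgeR and 7 with DESeq2, against 1.64% and 2.51% of all genes. It was 4 without MT replicate 2 (all genes 0.704%), 5 without MT replicate 3 (0.766%) or NP replicate 3 (1.23%), and 6 or 7 without any other animal (1.11% to 2.35%). SLC5A6, SLC26A7 and SLC36A2 were in each of these sets. With all animals, the opposite shape was not seen among the tested members. All MT animals lay below all NP and LT animals in 0 tested members, against 4.03% of all genes. SLC5A1 had this order, but its highest stage mean was 2.36 TPM and it was not tested. Lower and then higher calls by limma numbered 0 (all genes 1.77%), and edgeR, DESeq2 and an unadjusted P under 0.05 by limma also gave 0. Without NP replicate 1, limma called SLC36A1 lower from NP to MT (adjusted P = 0.0229) and higher from MT to LT (adjusted P = 0.0431).

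**Figure D2:**
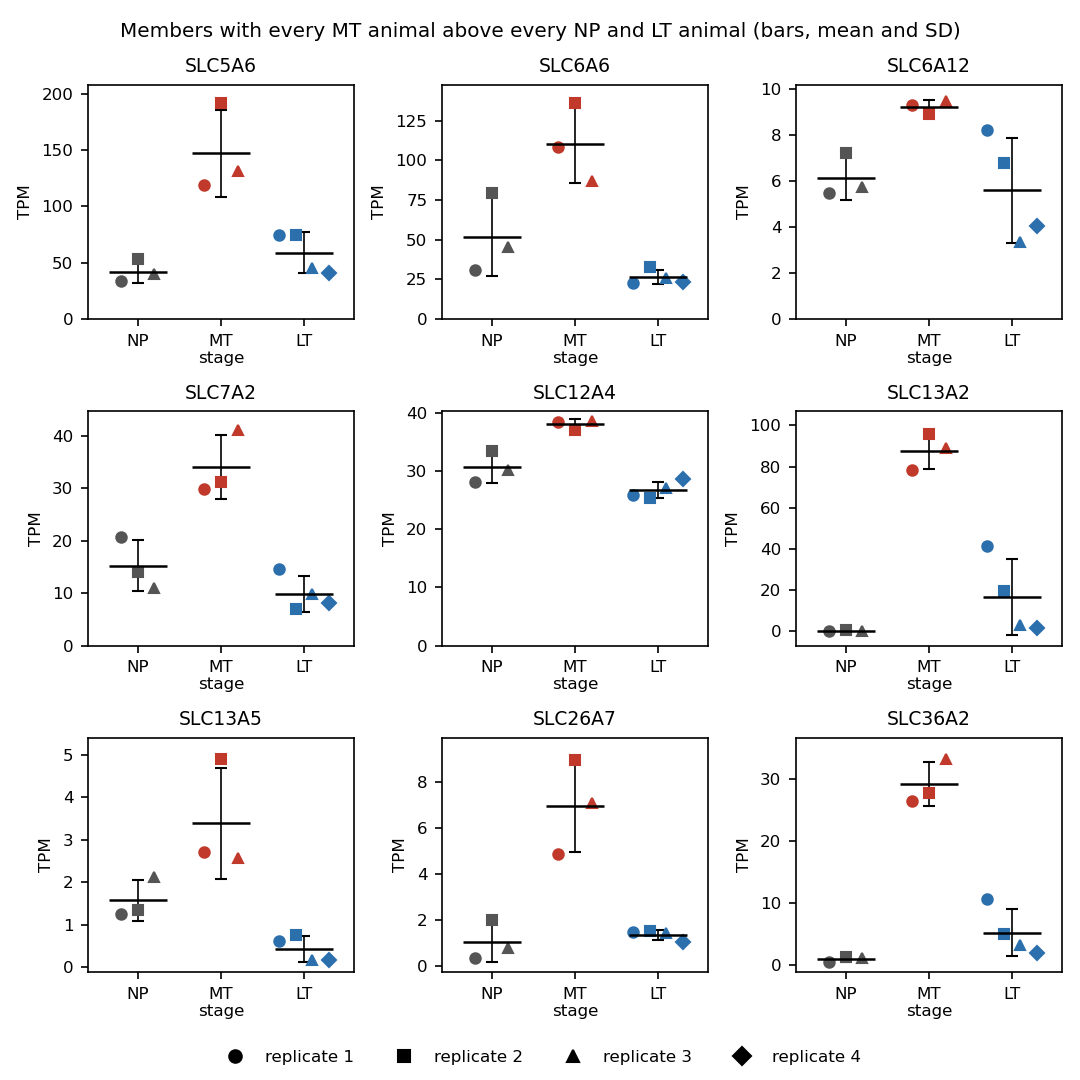
TPM of the 9 members in which every MT animal lay above every NP and LT animal, by stage, with 1 marker shape per replicate number, horizontal lines at the mean and bars of 1 SD. The 3 MT animals of SLC13A2 sit between 78.4 and 95.9 TPM, above all 4 LT animals and all NP animals, which lie below 1 TPM.

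Among the dicarboxylate and citrate carriers, SLC13A2 (ENSCPOG00000009792), which couples sodium to the uptake of succinate and other Krebs cycle dicarboxylates, had the largest change of all members. Its levels were 0.0245, 0.768 and 0.387 TPM in the NP animals, on 1, 23 and 13 reads. They were 78.4, 95.9 and 89.0 TPM in MT and 41.5, 19.7, 3.32 and 1.80 TPM in LT. No stage overlapped another, and LT covered the widest range, with replicates 1 and 2 well above replicates 3 and 4. On the log2 scale the differences were 6.02 (SE 0.85, limma adjusted P = 0.00188) from NP to MT, -3.12 (SE 0.80, limma adjusted P = 0.0176) from MT to LT and 2.90 (SE 0.80, limma adjusted P = 0.0121) from NP to LT. The call from MT to LT was lost with edgeR (adjusted P = 0.0762), with DESeq2 (adjusted P = 0.0954) and without MT replicate 2 (adjusted P = 0.0611).

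SLC13A5 (ENSCPOG00000002889), a sodium-coupled citrate carrier, also had its highest level in MT, though it was far less abundant. It was at 1.24, 1.35 and 2.12 TPM in NP, at 2.70, 4.90 and 2.57 TPM in MT and at 0.608, 0.749, 0.158 and 0.171 TPM in LT. The 3 stages did not overlap, with LT lowest. The gene fell from MT to LT with a log2 fold change of -1.61 (SE 0.27, limma adjusted P = 0.00401) and was lower in LT than in NP, with -0.86 (SE 0.27, limma adjusted P = 0.0238). From NP to MT its log2 fold change of 0.75 (limma adjusted P = 0.101) was not called. The call from NP to LT was lost without NP replicate 3, LT replicate 3 or LT replicate 4 (adjusted P from 0.0582 to 0.0902). Without MT replicate 2 the gene was below 3 TPM in each stage and was not tested. The other 3 members of the family, SLC13A1, SLC13A3 and SLC13A4, were below 3 TPM in every stage. Summed over its 5 members, the family stood at 3.93 ± 1.13 (NP), 92.7 ± 9.77 (MT) and 17.9 ± 18.8 (LT) TPM (SD, n = 3, 3 and 4).

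SLC26 proteins exchange chloride, bicarbonate, iodide and sulfate. SLC26A4 (ENSCPOG00000002391), known as pendrin, an apical chloride, iodide and bicarbonate exchanger, was the most abundant member of all 98. It took 6.11% to 44.7% of the summed TPM of the members in an animal (median 36.3%). Its levels were 70.0, 528 and 709 TPM in NP, 697, 1155 and 845 TPM in MT and 765, 791, 482 and 615 TPM in LT. All stages overlapped, and NP replicate 1 lay far below every other animal. No comparison was called, with log2 fold changes of 1.56 (SE 0.70, limma adjusted P = 0.142) from NP to MT, -0.43 (SE 0.65, limma adjusted P = 0.639) from MT to LT and 1.12 (SE 0.65, limma adjusted P = 0.170) from NP to LT. Without NP replicate 1 it was 0.52 from NP to MT and 0.09 from NP to LT. The exact permutation test of the F statistic over the 3 stages gave P = 0.0914, where 0.000476 is the smallest it allows. NP replicate 1 also had the lowest sum of glandular markers, 1439 TPM, and the part of this in the low SLC26A4 was not tested.

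**Figure D3:**
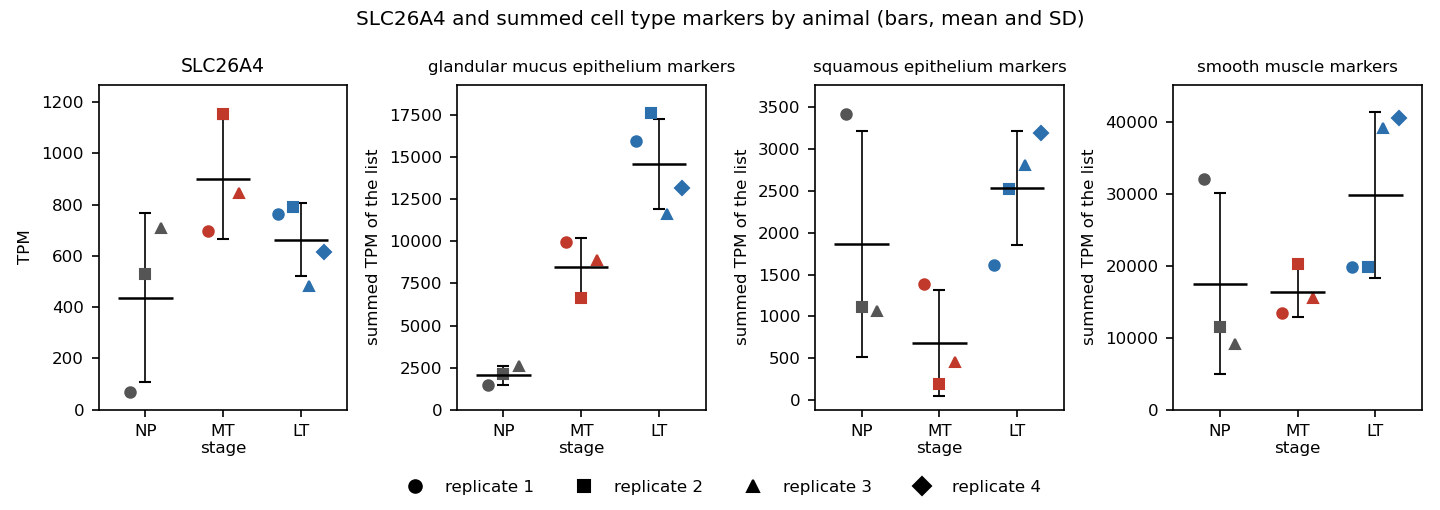
TPM of SLC26A4 and the summed TPM of the glandular mucus epithelium, squamous epithelium and smooth muscle marker lists, by stage, with 1 marker shape per replicate number, lines at the mean and bars of 1 SD. NP replicate 1 is lowest for SLC26A4, at 70.0 TPM, and highest within NP for the squamous and smooth muscle markers.

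SLC26A7 (ENSCPOG00000002686), a chloride and bicarbonate transporter of acid-secreting epithelia, was far less abundant but moved clearly. Its levels were 0.354, 2.03 and 0.780 TPM in NP, 4.89, 8.95 and 7.08 TPM in MT and 1.49, 1.53, 1.42 and 1.05 TPM in LT. Every MT animal was above all others, while NP and LT overlapped. The gene rose from NP to MT by 2.01 (SE 0.31, limma adjusted P = 0.00275) and fell from MT to LT with -1.72 (SE 0.29, limma adjusted P = 0.00382) on the log2 scale. Both calls held under every alternative. It crossed 3 TPM upward and then downward again. SLC26A2 (ENSCPOG00000001964), the sulfate carrier needed for sulfated proteoglycans, had means of 29.4 ± 4.39 (NP), 25.4 ± 3.75 (MT) and 16.8 ± 0.622 (LT) TPM. It fell from MT to LT with a log2 fold change of -0.56 (limma adjusted P = 0.0112), lost without MT replicate 2 (adjusted P = 0.0517), and every LT animal was below every MT and NP animal.

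The SLC4 family moves bicarbonate, and its 4 tested members went in different directions. SLC4A7 (ENSCPOG00000004444), an electroneutral sodium bicarbonate cotransporter and the most abundant of the family, was at 33.1, 33.8 and 32.4 TPM in NP, 17.1, 16.5 and 19.8 TPM in MT and 13.4, 19.0, 17.8 and 25.6 TPM in LT. Its NP animals lay close together and above every pregnant animal. Limma gave log2 fold changes of -0.86 (SE 0.18, limma adjusted P = 0.0121) from NP to MT and -0.81 (SE 0.17, limma adjusted P = 0.00358) from NP to LT, and both calls held under every alternative. SLC4A3 (ENSCPOG00000012401), a chloride and bicarbonate exchanger, had 15.5, 20.6 and 16.1 TPM in NP, 14.9, 10.8 and 11.6 TPM in MT and 8.89, 8.75, 8.61 and 9.21 TPM in LT. Each later stage lay below the one before without overlap, with a log2 fold change of -0.89 (limma adjusted P = 0.000605) from NP to LT. From MT to LT its log2 fold change of -0.44 (limma adjusted P = 0.0346) was lost after median-ratio scaling (adjusted P = 0.0962), with edgeR, with DESeq2 and without MT replicate 1 or 3 or any LT animal (adjusted P from 0.0598 to 0.117).

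SLC4A11 (ENSCPOG00000001277), first described as a borate transporter and best known from the corneal endothelium, went the other way. It was at 2.84, 5.29 and 3.72 TPM in NP, 12.5, 7.11 and 10.6 TPM in MT and 8.89, 15.2, 10.8 and 15.3 TPM in LT. All pregnant animals were above all NP animals, and MT and LT overlapped. The changes on the log2 scale were 1.16 (SE 0.27, limma adjusted P = 0.0157) from NP to MT, lost without MT replicate 3 (adjusted P = 0.0619), and 1.45 (SE 0.25, limma adjusted P = 0.00116) from NP to LT. SLC4A5 (ENSCPOG00000012705), an electrogenic sodium bicarbonate cotransporter, was at 0.133, 5.12 and 3.58 TPM in NP, 4.75, 7.47 and 4.36 TPM in MT and 1.71, 0.887, 0.358 and 0.271 TPM in LT. All LT animals lay below all MT animals, and NP replicate 1 was the lowest of all. The gene fell below 3 TPM from MT to LT with a log2 fold change of -1.89 (SE 0.53, limma adjusted P = 0.0251). This call was lost with edgeR (adjusted P = 0.0513) and without MT replicate 1, 2 or 3 or LT replicate 3 or 4 (adjusted P from 0.0516 to 0.0979).

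The SLC9 proteins exchange sodium for protons, at the cell surface or in intracellular compartments. SLC9A2 (ENSCPOG00000007613), an apical exchanger of epithelia, was at 0.0965, 1.13 and 1.29 TPM in NP, 2.01, 5.86 and 5.50 TPM in MT and 2.25, 1.11, 0.552 and 0.448 TPM in LT. The MT animals were above the NP animals, but MT replicate 1 lay below LT replicate 1. It rose above 3 TPM with a log2 fold change of 1.55 (SE 0.44, limma adjusted P = 0.0371) and fell back with -1.37 (SE 0.41, limma adjusted P = 0.0328). Both calls were lost with edgeR (adjusted P = 0.0571 and 0.0769). Leaving out single animals ended the first call for NP replicates 1 and 2, MT replicates 2 and 3 and LT replicates 2 and 3 (adjusted P from 0.0502 to 0.131), and the second for MT replicates 2 and 3 and LT replicates 2 to 4 (from 0.0621 to 0.131).

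SLC9A5 (ENSCPOG00000010865), an exchanger described mainly in neurons, had the steepest decline of the family. Its levels were 13.4, 13.7 and 12.2 TPM in NP, 10.9, 6.48 and 4.69 TPM in MT and 2.32, 2.38, 1.77 and 1.10 TPM in LT. Each later stage again lay below the one before without overlap, and the gene ended below 3 TPM. It changed by log2 fold changes of -1.49 (SE 0.25, limma adjusted P = 0.00400) from MT to LT and -2.31 (SE 0.25, limma adjusted P = 0.000175) from NP to LT, and neither call was lost under any alternative. From NP to MT it was -0.82 (limma adjusted P = 0.0610), not called, though it was called lower on the square-root scale (adjusted P = 0.0349), with a pseudocount of 3 (adjusted P = 0.0407) and without MT replicate 1 (adjusted P = 0.0157). SLC9A8 (ENSCPOG00000013530), an exchanger of the Golgi and endosomes, had means of 10.2 ± 0.659, 10.4 ± 0.752 and 6.45 ± 0.0547 TPM in NP, MT and LT, and its log2 fold change from MT to LT was -0.61 (limma adjusted P = 0.00361). The log2 fold change from NP to LT was -0.59 (limma adjusted P = 0.00110), and both calls held under every alternative. The endosomal SLC9A9 was not called by limma, edgeR or DESeq2, with means of 8.26 ± 1.32, 6.94 ± 1.69 and 7.99 ± 1.18 TPM.

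The SLC12 family holds the cation and chloride cotransporters. SLC12A7 (ENSCPOG00000006679), a potassium chloride carrier that lets chloride leave the cell, had 28.7, 44.3 and 48.0 TPM in NP, 26.2, 28.2 and 24.5 TPM in MT and 24.7, 21.8, 18.8 and 19.4 TPM in LT. Every pregnant animal was below every NP animal. The gene was lower in LT than in NP (log2 fold change -0.87, limma adjusted P = 0.00213), and the difference of -0.57 (limma adjusted P = 0.0547) between NP and MT was not called by limma with all animals. It was called lower with edgeR (adjusted P = 0.0442), with DESeq2 (adjusted P = 0.0136), on the square-root scale (adjusted P = 0.0496) and without NP replicate 1 (adjusted P = 0.00350).

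SLC12A4 (ENSCPOG00000011721), a widely expressed potassium chloride cotransporter of volume control, peaked in MT instead, though by little. Its levels were 28.2, 33.5 and 30.2 TPM in NP, 38.5, 37.0 and 38.6 TPM in MT and 25.8, 25.5, 27.1 and 28.6 TPM in LT. The MT animals lay close together and above the rest. It fell from MT to LT with a log2 fold change of -0.49 (limma adjusted P = 0.00402). The smaller rise from NP to MT (0.31, limma adjusted P = 0.0417) was lost without NP replicate 3 or any of the MT or LT animals (adjusted P from 0.0512 to 0.124). SLC12A2 (ENSCPOG00000014529), which loads secretory cells with sodium, potassium and chloride, was at 30.8 ± 2.28 (NP), 39.6 ± 12.1 (MT) and 32.2 ± 5.98 (LT) TPM and was called in no comparison by limma, edgeR or DESeq2, as was SLC12A9, with means of 18.7 ± 1.73, 19.9 ± 2.69 and 16.6 ± 1.63 TPM. Stages in descending order without overlap were seen in 3 members (5.77%, against 6.75% of all genes), SLC4A3 and SLC9A5 among them, while a rise without overlap was seen in 0 members (0.996% of all genes).

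**Figure D4:**
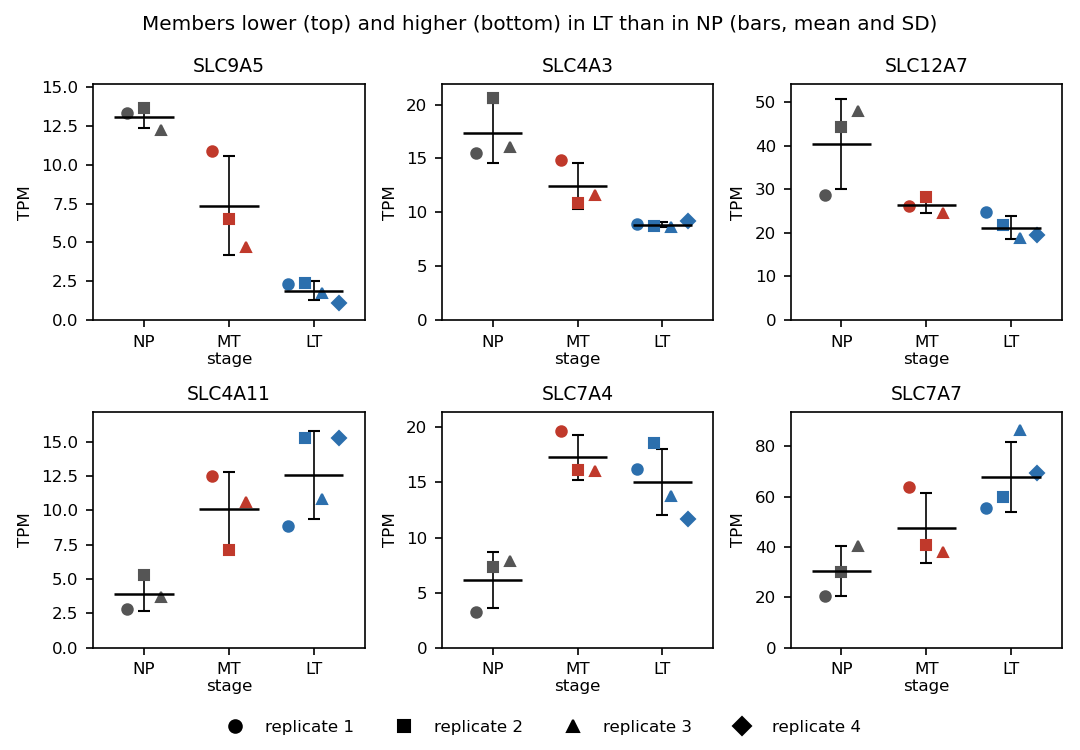
TPM by stage of 3 members that were lower in LT than in NP (SLC9A5, SLC4A3 and SLC12A7, top) and 3 that were higher (SLC4A11, SLC7A4 and SLC7A7, bottom), with 1 marker shape per replicate number, lines at the mean and bars of 1 SD. In the top panels every LT animal lies below every NP animal, and in the bottom panels every LT animal lies above every NP animal.

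The SLC5 family couples sodium to varied solutes. SLC5A6 (ENSCPOG00000003819), the carrier of biotin, pantothenate and lipoate, made up 62.6% to 92.8% of the family's TPM and was the most abundant member with a peak in MT. It was at 33.3, 53.0 and 39.6 TPM in NP, 119, 191 and 131 TPM in MT and 74.5, 74.5, 45.3 and 40.6 TPM in LT. Every MT animal was above every other animal, and LT replicates 1 and 2 were above all NP animals. Its log2 fold changes were 1.78 (SE 0.28, limma adjusted P = 0.00306) from NP to MT and -1.33 (SE 0.26, limma adjusted P = 0.00657) from MT to LT, and both calls held under every alternative. The exact permutation test of the F statistic gave P = 0.00381. SLC5A3 (ENSCPOG00000025098), which takes up the osmolyte myo-inositol, was at 10.9 ± 3.72 TPM in NP and 13.8 ± 1.09 TPM in MT, and fell to 6.98 ± 1.15 TPM in LT with a log2 fold change of -0.90 (limma adjusted P = 0.0133) from MT.

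SLC5A5 (ENSCPOG00000002288), the sodium iodide symporter of the thyroid and the lactating breast, was the one member called while falling from above to below 3 TPM between NP and MT. It was at 0.653, 4.49 and 8.40 TPM in NP, 0.285, 0.0941 and 0.0693 TPM in MT and 0.173, 0.202, 0.0402 and 0.0218 TPM in LT. NP covered a wide range, yet its lowest animal, replicate 1, was above all pregnant animals, in which the gene rested on 1 to 10 reads. Log2 fold changes were -1.94 (SE 0.53, limma adjusted P = 0.0307) from NP to MT and -1.99 (SE 0.49, limma adjusted P = 0.00751) from NP to LT. The first was lost without NP replicate 2 or any single MT animal (adjusted P from 0.0526 to 0.0987), while the second held under every alternative in which it was tested. Without NP replicate 3 the gene was under 3 TPM in each stage and was not tested.

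Among the SLC6 carriers of osmolytes, creatine and neurotransmitters, SLC6A6 (ENSCPOG00000014967), the taurine carrier, peaked in MT. It was at 30.8, 79.4 and 45.5 TPM in NP, 108, 136 and 86.8 TPM in MT and 22.9, 32.6, 26.1 and 23.5 TPM in LT. All MT animals were above all others, and the LT animals were narrow and low, overlapping NP only through NP replicate 1. On the log2 scale the differences were 1.16 (SE 0.30, limma adjusted P = 0.0251) from NP to MT, -2.02 (SE 0.28, limma adjusted P = 0.00221) from MT to LT and -0.86 (SE 0.28, limma adjusted P = 0.0252) from NP to LT. The fall from MT to LT held under every alternative. The rise was lost without NP replicate 3, MT replicate 1 or MT replicate 2 (adjusted P from 0.0539 to 0.0815) and with 2 stages only (adjusted P = 0.0792). The difference between NP and LT was lost after median-ratio scaling (adjusted P = 0.0820), with edgeR (adjusted P = 0.0593) and on the square-root scale (adjusted P = 0.0507). That call was also lost without NP replicate 2 or 3 or LT replicate 1 or 4 (from 0.0529 to 0.0917).

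SLC6A12 (ENSCPOG00000013741), the carrier of the osmolyte betaine, showed the same order at a lower level without a call. Its levels were 5.45, 7.22 and 5.73 TPM in NP, 9.30, 8.88 and 9.47 TPM in MT and 8.18, 6.79, 3.32 and 4.02 TPM in LT. Limma gave log2 fold changes of 0.53 (limma adjusted P = 0.184) from NP to MT and -0.70 (limma adjusted P = 0.0552) from MT to LT, and the second was called without NP replicate 1 (adjusted P = 0.0489) or LT replicate 1 (adjusted P = 0.0198). SLC6A8 (ENSCPOG00000011710), the creatine carrier, was the most abundant of the family outside MT. It stood at 70.9 ± 0.986 (NP), 63.1 ± 18.7 (MT) and 81.5 ± 10.8 (LT) TPM, and limma called it in no comparison, though DESeq2 called it higher in LT than in MT (adjusted P = 0.0241) and than in NP (adjusted P = 0.0289). The glycine carrier SLC6A9, the GABA carrier SLC6A11 and SLC6A17 were not called by limma either, with stage means from 2.05 to 10.8 TPM. SLC6A17, with -0.53 (limma adjusted P = 0.0517) from NP to LT, was called lower on the square-root scale (adjusted P = 0.0479), without a filter (adjusted P = 0.0398), with a filter of 1 TPM (adjusted P = 0.0374) and without LT replicate 1 (adjusted P = 0.0300).

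SLC36A2 (ENSCPOG00000008306) moves glycine, proline and alanine into cells together with protons, and stood out among the amino acid carriers. It was at 0.546, 1.41 and 1.14 TPM in NP, 26.5, 27.7 and 33.2 TPM in MT and 10.7, 5.04, 3.33 and 1.99 TPM in LT. The stages did not overlap, and the LT animals fell in the same order as for SLC13A2, with replicate 1 highest and replicate 4 lowest. The changes on the log2 scale were 3.91 (SE 0.41, limma adjusted P = 0.000621) from NP to MT, -2.45 (SE 0.39, limma adjusted P = 0.00336) from MT to LT and 1.46 (SE 0.39, limma adjusted P = 0.0102) from NP to LT, and none of the 3 calls was lost under any alternative. The exact permutation test of the F statistic gave P = 0.000952. Its close relative SLC36A1 (ENSCPOG00000014430), which exports amino acids from lysosomes, had 9.34 ± 1.94, 7.60 ± 0.715 and 9.34 ± 0.325 TPM. With all animals limma called it in no comparison, but edgeR called it higher in LT than in MT (adjusted P = 0.0165) and than in NP (adjusted P = 0.0485), as did DESeq2 and limma after median-ratio scaling. Without NP replicate 1, limma called it lower from NP to MT (adjusted P = 0.0229) and higher from MT to LT (adjusted P = 0.0431). SLC36A2 thus made up 6.95% of the family's TPM in the lowest animal and 81.0% in the highest.

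Within LT, replicates 1 and 2 were both above replicates 3 and 4 in 15 of the 30 members with a call, among them SLC5A6, SLC13A2, SLC26A7 and SLC36A2, and both below in 3, SLC7A7, SLC12A4 and SLC26A2. The first order was also found in 38.8% of all tested genes and the second in 17.4%, so the split of the LT animals was general. Replicates 1 and 2 were also the LT animals with the lower smooth muscle sums and the higher glandular marker sums, 15973 and 17624 TPM against 11650.1 and 13195 TPM. That order of the glandular sums came largely through LTF, at 6885 and 6680 TPM against 1804 and 1535 TPM. AGR2, at 5547 and 6982 TPM against 6782 and 7559 TPM, did not follow it and was highest in replicate 4. The part of tissue composition in the spread of these members within LT was not tested. Between stages, the glandular sum was highest in LT, where it rested largely on AGR2, which assists mucin folding, and on the secreted iron-binding protein LTF. The median log2 fold change of the 15 glandular markers tested was 0.07 from MT to LT. Limma called 8 higher and 1 lower from NP to MT (all genes 6.27% and 12.2%), 2 higher from MT to LT (6.73%), and 11 higher from NP to LT (11.2%). In 6 of the 15 the mean was higher in MT than in LT, as in the peaking carriers, among them the gel-forming mucin MUC5B at 729.6 ± 296 TPM in MT against 340.0 ± 61.8 TPM in LT. Limma did not call MUC5B from MT to LT, and MT replicate 2 (391 TPM) lay below LT replicate 1 (407 TPM). The part of the glandular markers in the peak of the carriers was not tested.

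SLC7 holds the cationic amino acid carriers and the light chains that pair with the SLC3 glycoproteins. SLC7A2 (ENSCPOG00000008648), a carrier of arginine, lysine and ornithine, peaked in MT. It was at 20.6, 14.0 and 11.1 TPM in NP, 29.9, 31.3 and 41.1 TPM in MT and 14.7, 6.98, 9.84 and 8.04 TPM in LT. The MT animals were above all others, while NP and LT overlapped. It changed by log2 fold changes of 1.14 (SE 0.27, limma adjusted P = 0.0185) from NP to MT and -1.72 (SE 0.26, limma adjusted P = 0.00282) from MT to LT. The second call held under every alternative, and the first was lost without NP replicate 2, NP replicate 3 or MT replicate 3 (adjusted P from 0.0589 to 0.0778). SLC7A1, the widely expressed carrier of the same amino acids, had means of 9.95 ± 3.42, 15.6 ± 6.18 and 17.7 ± 4.22 TPM. Limma did not call it, with 0.79 (limma adjusted P = 0.0530) from NP to LT, but edgeR (adjusted P = 0.0315), DESeq2 (adjusted P = 0.00702) and limma after median-ratio scaling (adjusted P = 0.0260) called it higher in LT.

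SLC7A4 (ENSCPOG00000023418), a relative of the cationic carriers whose substrate is not settled, was higher throughout pregnancy. It was at 3.21, 7.35 and 7.89 TPM in NP, 19.6, 16.1 and 16.0 TPM in MT and 16.2, 18.5, 13.8 and 11.7 TPM in LT. All pregnant animals were above all NP animals. Its log2 fold changes were 1.42 (SE 0.27, limma adjusted P = 0.00748) from NP to MT and 1.22 (SE 0.25, limma adjusted P = 0.00303) from NP to LT, and both calls held under every alternative.

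Of the light chains, SLC7A7 (ENSCPOG00000005730), which exports arginine and lysine in exchange for neutral amino acids, was the most abundant SLC7 member by its mean over all animals. It was at 20.5, 30.2 and 40.6 TPM in NP, 63.6, 41.0 and 38.0 TPM in MT and 55.4, 60.0, 86.6 and 69.3 TPM in LT. Every LT animal was above every NP animal, and MT overlapped both. It was higher in LT than in NP (log2 fold change 1.16, SE 0.25, limma adjusted P = 0.00367). SLC7A5 (ENSCPOG00000006585), a carrier of large neutral amino acids in growing cells, was also higher in LT than in NP, at 24.6 ± 2.20 against 13.3 ± 3.81 TPM, with 0.87 (limma adjusted P = 0.00435).

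SLC7A8 (ENSCPOG00000014051), a carrier of the same substrates in polarised epithelia, went down instead. Its means were 46.2 ± 5.87 (NP), 28.5 ± 2.45 (MT) and 23.9 ± 5.96 (LT) TPM, with a log2 fold change of -0.95 (limma adjusted P = 0.00130) from NP to LT. The call from NP to MT (-0.67, limma adjusted P = 0.0270) was lost after median-ratio scaling (adjusted P = 0.0772), with edgeR, and without NP replicate 2, MT replicate 1 or MT replicate 3 (from 0.0687 to 0.0874). SLC7A11 (ENSCPOG00000013036), the cystine and glutamate exchanger that supplies cysteine for glutathione, was at 3.62, 2.22 and 4.06 TPM in NP, 1.32, 0.636 and 2.48 TPM in MT and 1.26, 0.615, 0.764 and 0.386 TPM in LT. Every LT animal was below every NP animal, and the log2 fold change from NP to LT was -1.29 (SE 0.31, limma adjusted P = 0.00611). The remaining light chains SLC7A6 and SLC7A10 were not called by limma, edgeR or DESeq2 in the fit over all animals. SLC7A10 was at 9.59, 11.8 and 11.2 TPM in NP, 10.7, 4.51 and 3.49 TPM in MT and 5.40, 5.37, 8.15 and 7.37 TPM in LT, so every LT animal was below every NP animal. Its difference of -0.66 (limma adjusted P = 0.0814) from NP to LT was called lower with only these 2 stages in the fit (adjusted P = 0.0151) and without MT replicate 1 (adjusted P = 0.0111), which also gave a lower call from NP to MT (adjusted P = 0.00576).

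In SLC1, the glutamate and neutral amino acid carriers, calls were made by limma from NP to LT alone with all animals. Without NP replicate 1, limma also called 1 member higher, SLC1A5 (adjusted P = 0.00999), and 1 lower, SLC1A4 (adjusted P = 0.0420), from NP to MT, and without MT replicate 3 SLC1A4 was lower there as well (adjusted P = 0.0403). With all animals, from NP to MT 1 of the 3 tested members and from MT to LT 0 had an unadjusted P under 0.05, and edgeR and DESeq2 each called 1 higher from MT to LT. SLC1A3 (ENSCPOG00000007462), a glutamate and aspartate carrier, was at 1.93, 2.99 and 2.06 TPM in NP, 4.62, 3.52 and 3.02 TPM in MT and 8.39, 7.33, 3.34 and 5.73 TPM in LT. All NP animals were below 3 TPM and below all pregnant animals. The log2 fold change from NP to LT was 1.07 (SE 0.27, limma adjusted P = 0.00758). SLC1A4 (ENSCPOG00000008754), a carrier of alanine, serine and cysteine, was lower in LT than in NP, at 2.46 ± 0.299 against 4.20 ± 0.763 TPM, with -0.58 (limma adjusted P = 0.0355), a call lost after median-ratio scaling (adjusted P = 0.140), with edgeR, with DESeq2, and without NP replicate 2 or 3 or any LT animal (from 0.0540 to 0.134). SLC1A5 (ENSCPOG00000004326), the glutamine carrier and the most abundant of the family, was at 33.1, 17.6 and 12.3 TPM in NP, 26.7, 22.4 and 30.8 TPM in MT and 29.3, 29.0, 32.7 and 34.0 TPM in LT. NP replicate 1 was the highest NP animal, and from NP to LT the log2 fold change of 0.66 (limma adjusted P = 0.0558) was not called by limma, but was 1.03 without that animal (adjusted P = 0.000690), and DESeq2 called it with all animals (adjusted P = 0.0286).

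The SLC38 family, the sodium-coupled carriers of glutamine, alanine and other small neutral amino acids, was abundant, and limma made 1 call in it. Its 10 members summed to 356 ± 28.5 (NP), 385 ± 57.3 (MT) and 362 ± 24.5 (LT) TPM (SD, n = 3, 3 and 4). SLC38A2 (ENSCPOG00000003746), the carrier that cells induce when amino acids run short, was at 211, 128 and 123 TPM in NP, 218, 145 and 147 TPM in MT and 131, 170.1, 138 and 179.9 TPM in LT. The stages overlapped throughout, with an exact permutation test of the F statistic at P = 0.819. SLC38A10 was even across stages in TPM, with means of 99.7 ± 13.2, 98.3 ± 4.25 and 98.6 ± 6.18 TPM. SLC38A1, a glutamine carrier of the cell surface, was at 42.0 ± 4.09 (NP), 46.4 ± 7.59 (MT) and 50.5 ± 8.61 (LT) TPM. SLC38A4, SLC38A6 and the lysosomal amino acid sensor SLC38A9 were lower in abundance and not called by limma, edgeR or DESeq2. SLC38A4 was called lower from MT to LT without MT replicate 2 (adjusted P = 0.0420). From NP to MT limma called 0 of the 7 tested members, with 0 at an unadjusted P under 0.05, and edgeR and DESeq2 also called 0. From NP to LT limma again called 0, with 0 at an unadjusted P under 0.05, but edgeR and DESeq2 each called 3 higher, SLC38A1 (edgeR adjusted P = 0.0149), SLC38A10 (edgeR adjusted P = 0.0138) and SLC38A7.

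SLC38A7 (ENSCPOG00000009158), a glutamine exporter of lysosomes, gave the one higher call from MT to LT among all members. Its means were 17.9 ± 0.610 TPM in MT and 22.2 ± 0.707 TPM in LT, a log2 fold change of 0.30 (limma adjusted P = 0.0498), lost on the square-root scale (adjusted P = 0.0532) and without NP replicate 3 or any MT or LT animal (from 0.0600 to 0.152). Of the SLC43 carriers of branched-chain amino acids, SLC43A2 (ENSCPOG00000010361) was at 13.5, 44.3 and 41.8 TPM in NP, 46.2, 33.0 and 36.3 TPM in MT and 74.3, 56.2, 49.8 and 30.7 TPM in LT. NP replicate 1 was lowest and LT replicate 1 highest. Limma called neither SLC43 member in any comparison, with 0 at an unadjusted P under 0.05, while edgeR and DESeq2 each called 1 higher from NP to LT.

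**Figure D5:**
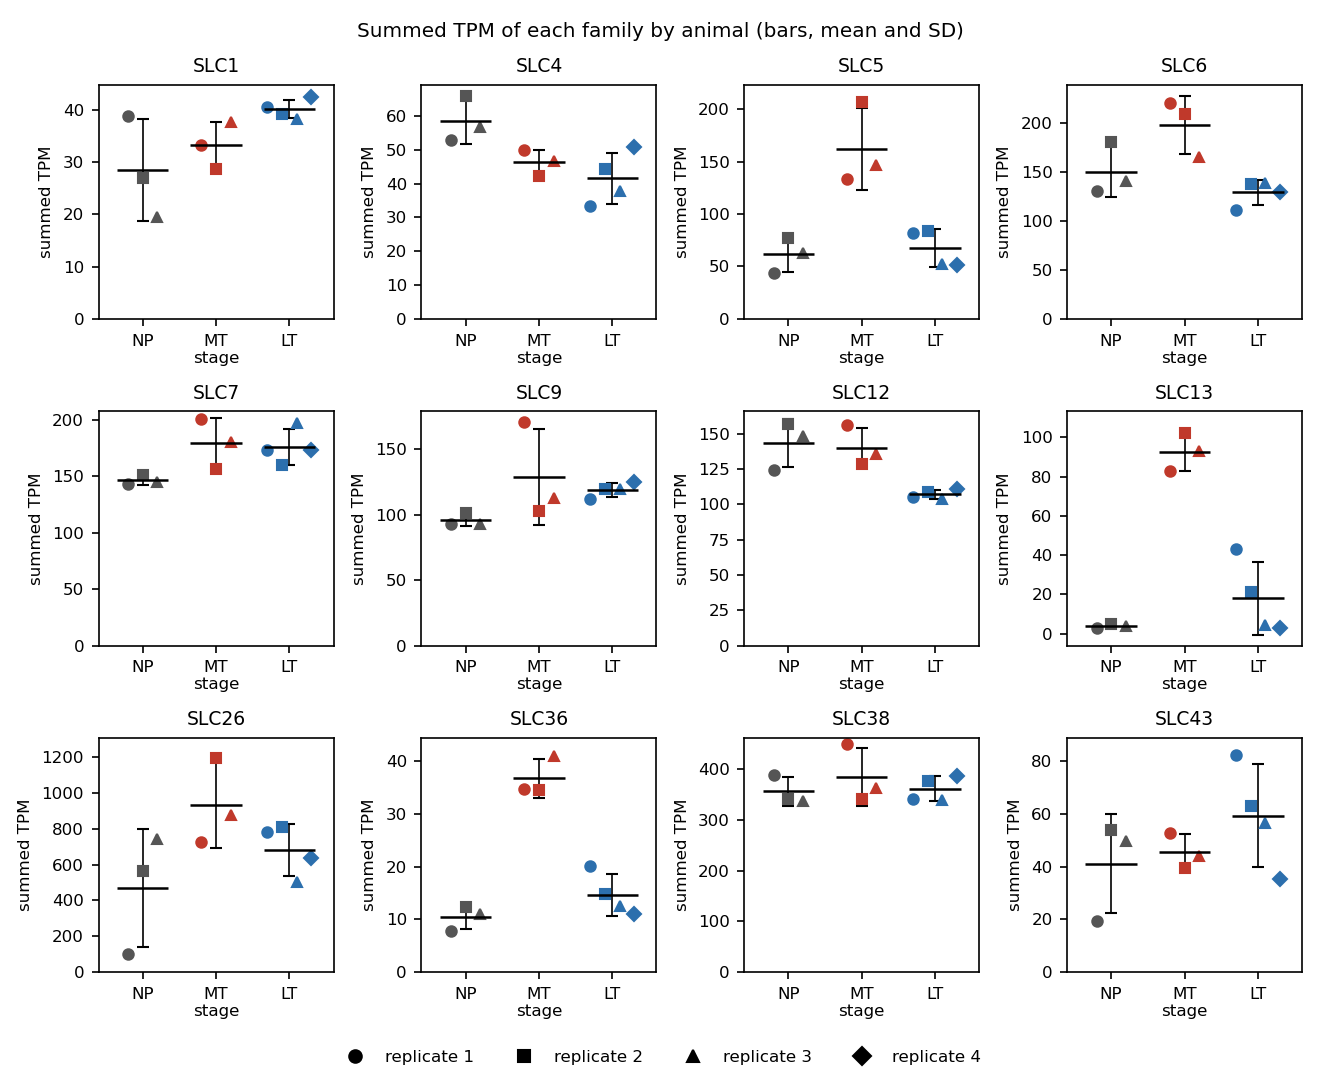
Summed TPM of all members of each family by stage, with 1 marker shape per replicate number, lines at the mean and bars of 1 SD. SLC5, SLC13 and SLC36 have all MT animals above all NP and LT animals, whereas SLC38 overlaps across stages.

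Summed over all 98 members, TPM was 1566 ± 365 in NP, 2379 ± 181 in MT and 1816 ± 171 in LT (SD, n = 3, 3 and 4). Much of the spread in NP came through SLC26A4, and without it the sums were 1130 ± 69.4, 1480 ± 115 and 1153 ± 28.5 TPM. By family, the SLC5 sum was 61.6 ± 16.7 (NP), 162 ± 38.9 (MT) and 67.6 ± 17.8 (LT) TPM, and the SLC36 sum was 10.4 ± 2.31, 36.7 ± 3.65 and 14.6 ± 3.97 TPM. The SLC12 sum was 143 ± 17.0, 140.1 ± 14.2 and 107 ± 3.16 TPM, with every LT animal below every NP and MT animal. In the plot of family sums, the means of SLC7 and SLC9 were higher in MT and LT than in NP, and their MT animals spread the most.

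Secretory ion transport also depends on channels, pumps, carbonic anhydrases and kinases, of which 22 of a list of 35 were tested. Limma called 4 higher and 4 lower from NP to MT (all genes 6.27% and 12.2%) and 1 higher and 3 lower from MT to LT (6.73% and 22.7%). From NP to LT 6 were higher and 7 lower (11.2% and 41.9%). After median-ratio scaling the split was 5 to 2 from NP to MT (10.4% and 7.74%) and 9 to 4 from NP to LT (24.7% and 25.0%). With edgeR (23.6% and 25.8%) and DESeq2 (26.2% and 27.5%) it was also 9 to 4 from NP to LT. WNK4, a kinase that controls SLC12 cotransporters, was at 10.8 ± 2.29 (NP), 67.9 ± 20.0 (MT) and 51.1 ± 9.48 (LT) TPM, with a log2 fold change of 2.53 (limma adjusted P = 0.000280) from NP to MT. CLCA1, a secreted regulator of chloride channels, rose by 6.27 (limma adjusted P = 0.000212), and SCNN1G, a subunit of the epithelial sodium channel, by 1.39 (limma adjusted P = 0.00980). CA2, the cytosolic carbonic anhydrase that makes bicarbonate, went from 27.4 ± 5.90 TPM (NP) to 3.44 ± 0.716 TPM (MT), a fall with a log2 fold change of -2.67 (limma adjusted P = 0.00184). CA8, a related protein without that activity, rose with 1.62 (limma adjusted P = 0.0117). The chloride channel ANO1 fell from MT to LT with -1.32 (limma adjusted P = 0.00638). FXYD3, a regulator of the sodium pump and the most abundant of the list, was higher in LT than in NP with 1.12 (limma adjusted P = 0.00476), and CA13 with 1.47 (limma adjusted P = 0.00384).

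Of 18 listed partners of the amino acid carriers, 10 were tested. Limma called 1 higher and 1 lower from NP to MT (all genes 6.27% and 12.2%) and 1 higher and 2 lower from NP to LT (all genes 11.2% and 41.9%). From NP to LT, 3 were higher and 1 lower after median-ratio scaling (all genes 24.7% and 25.0%). With edgeR (23.6% and 25.8%) and DESeq2 (26.2% and 27.5%) the split was also 3 to 1. From MT to LT limma called 0, with 0 at an unadjusted P under 0.05, and edgeR and DESeq2 called 0. SLC3A2, the heavy chain that SLC7A5, SLC7A7, SLC7A8 and SLC7A11 need to reach the membrane, was not called, with 66.1 ± 4.90 (NP), 64.6 ± 5.56 (MT) and 58.0 ± 4.61 (LT) TPM. GLUL, which makes glutamine and was the most abundant of the list, was lower in LT than in NP, with -0.59 (limma adjusted P = 0.0269).

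Of 18 tested genes of the amino acid response driven by ATF4, limma called 2 higher and 2 lower from NP to MT (all genes 6.27% and 12.2%). From MT to LT 6 were higher (all genes 6.73%), and from NP to LT 6 were higher and 3 lower (all genes 11.2% and 41.9%). After median-ratio scaling 9 were called higher from MT to LT, where 14.0% of all genes were, and 12 higher and 1 lower from NP to LT, where 24.7% of all genes were higher and 25.0% lower. PHGDH, the first enzyme of serine synthesis, had 37.4 ± 4.11 (NP), 14.1 ± 3.69 (MT) and 29.3 ± 4.54 (LT) TPM. It fell from NP to MT with -1.37 (limma adjusted P = 0.00147) and rose from MT to LT with 1.02 (limma adjusted P = 0.00380), an order of stages opposite to that of the peaking carriers. SESN2, a leucine sensor, fell from NP to MT with -1.50 (limma adjusted P = 0.00227), and GPT2, which makes alanine, rose with 1.50 (limma adjusted P = 0.00734). ATF5 rose from MT to LT with 2.59 (limma adjusted P = 0.0142), and PYCR1, an enzyme of proline synthesis, was higher in LT than in NP with 1.01 (limma adjusted P = 0.000895). ATF4 itself, the most abundant of the list, was not called, at 468 ± 71.2, 433 ± 65.3 and 481 ± 19.5 TPM.

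Markers of the other cell types that the tissue holds gave the following calls by limma. From NP to MT 6.27% of all tested genes were higher and 12.2% lower, and from MT to LT 6.73% and 22.7%. From NP to LT the shares of all genes were 11.2% and 41.9%. Of 8 squamous epithelium markers tested, 3 were lower from NP to MT, 1 was higher from MT to LT and 3 were lower from NP to LT. Without NP replicate 1, with 7 tested, 4 were higher and 1 lower from MT to LT (all genes 9.72% and 32.4%). From NP to LT 2 were then higher and 2 lower (all genes 11.2% and 50.1%). Of 8 fibroblast markers, 1 was lower from NP to MT, 1 was higher and 2 were lower from MT to LT, and 3 were lower from NP to LT. Endothelial markers were lower for 1 of 8 from NP to MT, 7 from MT to LT and all 8 from NP to LT. Leukocyte markers were higher for 1 of 13 from NP to MT, 3 from MT to LT and 4 from NP to LT, where 2 were lower. Of 10 smooth muscle markers, 1 was higher in LT than in MT and 1 higher than in NP. Without NP replicate 1 these counts were 4 and 6, where 9.72% and 11.2% of all genes were higher. Of 5 markers of nerve and glia, 1 was higher and 2 were lower in LT than in each earlier stage. Erythroid markers did not reach the threshold and summed to 2.29 to 4.85 TPM per animal. Their part in the changes of the carriers was not tested.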

How the data were processed

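The authors extracted RNA from cervical tissue, selected poly A RNA, made strand-specific libraries and sequenced 75-base single reads. Base calling used CASAVA 1.8.2, and the authors aligned reads to the cavPor3.69 guinea pig genome with TopHat2 and made counts of reads per gene with HTSeq 0.5.4p1. The deposited table holds these raw read counts and the TPM values that the authors derived from them. Both were used as deposited, and samples were grouped by their labels. Coordinates and sequences are not given here, because the annotation at hand, RefSeq of another assembly, served for names alone (95 of 98 members matched).

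The members, the lists and the tests were chosen with earlier results of these data known. Genes reaching 3 TPM on average in any stage were tested two-sided by limma 3.58.1 (trend) in R 4.3.3 on log2(TPM + 1), in 1 fit with stage as the only term. Exact permutation tests of single members used square-root TPM over 4200 assignments, and pairs of stages cannot go below P = 0.1 (3 against 3) or 0.0286 (3 against 4). Members are named if called with an absolute log2 fold change of at least 1, if most abundant in their family, or if called while crossing 3 TPM, and others to account for them. The alternatives were square-root TPM, pseudocounts of 0.5 and 3, no filter, a filter of 1 TPM, median-ratio scaling, edgeR 4.0.16 (quasi-likelihood, TMM factors from 0.927 to 1.133) and DESeq2 1.42.0 on the counts, 2 stages only, a replicate block and each animal left out. The counts of members with a peak in MT were added after seeing the data. Of the tested members, 3 are counted but not reported singly here.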

Additional observations from a re-analysis of the deposited data

How the results depend on the processing

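Of 33 calls of the 23 members named by rule, 20 were kept under all 20 alternatives, 3 were kept under the 19 that tested them, 10 were lost under at least 1, and 0 were reversed. The 3 are SLC5A5 and SLC7A11 from NP to LT, not tested without NP replicate 3, and SLC13A5 from MT to LT, not tested without MT replicate 2. Of the 36 comparisons of these members without a call, 12 were called under some alternative. The number of members called lower from NP to MT (4) was 7 without a filter, 2 with only the 2 stages in the fit and 1 with the replicate block, where 9.43%, 4.81% and 7.50% of all genes were lower. That called higher from MT to LT (1) was 0 on the square-root scale, with a pseudocount of 3 and with the block, 3 after median-ratio scaling and with edgeR, and 6 with DESeq2. That called lower from MT to LT (17) was 11 with the block, where 10.1% of all genes were lower and 3.27% higher. From NP to LT, the number higher (8) was 16 after median-ratio scaling, 15 with edgeR and 17 with DESeq2, and the number lower (14) was 26 without a filter, where more genes were tested and 33.8% of them were lower. The number called up and then down (8) was 5 with only 2 stages and 5 with the block, where 1.4% and 0.751% of all genes were. With each animal left out, these 6 counts ranged from 6 to 10 (higher) and 1 to 8 (lower) from NP to MT, from 0 to 2 and 11 to 19 from MT to LT, and from 8 to 10 and 11 to 17 from NP to LT. The shares of all genes moved as well, from 3.81% to 7.18% (higher) and 4.86% to 25.9% (lower) from NP to MT. They ranged from 2.95% to 9.72% and 12.4% to 32.4% from MT to LT, and from 9.16% to 11.2% and 32.4% to 50.1% from NP to LT. The count called up and then down ranged from 4 to 7 (all genes 0.704% to 2.35%). That of MT above both other stages, which cannot fall when an animal is left out, ranged from 9 to 11 (all genes 4.23% to 6.81%). Without NP replicate 1 the number lower from NP to MT was 8, where 25.9% of all genes were lower. Same-numbered animals deviated together with correlations from -0.287 to 0.254, so the numbers were not taken to pair them. The block ended 6 of the 33 calls and reversed no call, and LT replicate 4 adds nothing to the comparisons in it. Directions of members that were not called turned in some cases. With the block these were SLC4A7 from MT to LT (-0.093), SLC12A2 from NP to LT (-0.055) and SLC38A2 from NP to LT (-0.038). SLC38A2 from MT to LT was 0.050 after median-ratio scaling, 0.039 with edgeR and 0.039 with DESeq2. With single animals left out, the log2 fold change ranged from -0.093 to 0.20 for SLC4A7, from -0.10 to 0.033 for SLC5A5 and from -0.22 to 0.072 for SLC38A2 from MT to LT. It ranged from -0.16 to 0.37 for SLC9A2, from -0.055 to 0.16 for SLC12A2 and from -0.10 to 0.29 for SLC38A2 from NP to LT, and from -0.033 to 0.41 for SLC38A2 and from -0.17 to 0.65 for SLC43A2 from NP to MT. Of 684 alternative values of family medians, 127 moved by more than the spread. The cause of these changes was not tested. With 3 or 4 animals a stage, small changes cannot be told from the spread.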

Other observations

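Among members below 3 TPM in every stage, some still separated the stages. SLC5A1, the sodium glucose carrier of absorptive epithelia, was at 2.26, 2.59 and 2.22 TPM in NP, 0.245, 0.121 and 0.179 TPM in MT and 0.503, 0.489, 1.11 and 1.70 TPM in LT. The 3 stages did not overlap and MT was lowest, on 8, 4 and 8 reads, an order opposite to that of the peaking members. SLC26A9, a chloride channel and transporter of airway and gastric epithelia, was at 5.67, 1.35 and 1.00 TPM in NP, 0.696, 0.102 and 0.113 TPM in MT and 0.211, 0.411, 0.343 and 0.442 TPM in LT. It was highest in NP replicate 1, the animal with the most squamous markers in NP. LT replicates 3 and 4, with squamous sums of 2807 and 3199 TPM, had SLC26A9 at only 0.343 and 0.442 TPM. SLC12A5, the potassium chloride cotransporter of neurons, was lower in each later stage without overlap, with means of 1.42 ± 0.161, 1.06 ± 0.161 and 0.406 ± 0.161 TPM. SLC6A16, an orphan carrier, did the same, from 1.30 ± 0.572 to 0.579 ± 0.131 and 0.267 ± 0.0333 TPM. These 4 genes were chosen after their values were seen, so no test is given.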
